A study of Homo sapiens with 17 samples.

Results

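FKBP5, ELL2, NDRG1, SGK1, PMEPA1, HERC3, PTGER4 and ADAMTS1 are genes known to respond to androgen, and they were examined here for N6-methyladenosine (m6A) in RNA of 3 prostate cell lines. The rule took every region of the 3 deposited region tables with an exon or intron mark of 1 of 9 symbols. TMEPAI, an older symbol of PMEPA1, marked no region, so the symbols stand for 8 genes. These genes held 67 of 77311 regions in 22Rv1, 181 of 110260 in LNCaP and 203 of 139373 in HPr1AR, in all 451 of 326944.

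22Rv1 and LNCaP are human prostate cancer lines, and HPr1AR cells are prostate epithelium that is not malignant. All cells were labelled wild type and vehicle, so no androgen was compared with vehicle here. Pull-downs of RNA used an m6A antibody or unspecific immunoglobulin G (IgG): 2 m6A and 3 IgG samples of 22Rv1 are labelled, and 3 m6A and 3 IgG samples each of LNCaP and HPr1AR. Whether a further m6A sample of 22Rv1 entered its table is not known, and each type of tissue is represented by 1 or 2 lines, so a difference between lines is not one between cancer and normal tissue.

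Androgens are steroid hormones that, in prostate cells, drive the transcription of genes of secretion, metabolism and growth. m6A is written on nascent RNA by a methyltransferase complex of METTL3 and METTL14, is removed by FTO and ALKBH5 and is read by YTH-domain proteins that alter splicing, decay and translation. In mammalian messenger RNA it is known to gather in long internal exons and around the stop codon and the 3′ untranslated region.

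The tables hold no value per sample. The reads of both pull-downs at each region's representative window were rebuilt from the deposited fold and p-value, and depths of 3.30 M m6A and 4.82 M IgG reads in 22Rv1, 3.92 M and 8.87 M in LNCaP and 5.13 M and 11.7 M in HPr1AR followed from the fitted constants. The names of the tables were taken to mean that the numerator is m6A. Rates are reads divided by depth in M reads (CPM), and a log2 ratio below is that of the m6A rate over the IgG rate, with a 95% exact binomial interval. A region was called higher or lower in m6A at an adjusted p of 0.05, from a two-sided exact binomial test with Benjamini-Hochberg adjustment over all regions of the line. IgG depth exceeded m6A depth in each line, so equal reads give a ratio above 0. Where the deposited p was 0 or no whole reads matched, the smallest reads are given and the ratio is marked as at least that value. Where more than 1 pair of m6A and IgG reads matched, the nearest is given, and its interval takes those reads as known. In LNCaP this holds for the PTGER4 start, the 5′-most FKBP5 exon region and the 3′-most ones of HERC3 and PMEPA1, among others. In 22Rv1 it holds for the start of ELL2. Coordinates are those of the files, whose stated build, hg38, they did not match. All such p-values and intervals measure counting error only, not the spread between samples. Of 8 luminal markers, 8 were listed in 22Rv1, 8 in LNCaP and 4 in HPr1AR, where KLK2, KLK3, TMPRSS2 and FOLH1 were not. Of 9 basal markers, 3 were listed in 22Rv1 (ITGA6, LAMB3 and CDH3), 2 in LNCaP (ITGA6 and LAMB3) and 9 in HPr1AR, KRT5, KRT14 and TP63 among them. Of 5 stromal markers, 2 were listed in 22Rv1 and 2 in HPr1AR (VIM and COL1A1), and 3 in LNCaP (PDGFRB too). Blood and endothelial markers were absent apart from 2 regions of VWF in LNCaP.

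Promoter sequences are shown for the gene whose every region was called higher, PTGER4, and for the only start of these genes that held an androgen response element half-site. RefSeq (GRCh38.p14) promoters matched 5 of the 8 genes by symbol, with 12 starts. The half-site AGAACA, or TGTTCT on the other strand, was searched in the 250 bases before each start. It was found at 1 of the 12 starts, and 12.4% of all 35116 promoters held it. The lines below give those 250 bases, 5′ to 3′ on the gene's strand, at GRCh38 chr5:40679665-40679914 (plus strand) for PTGER4 and at chr20:57710578-57710827 (minus strand) for PMEPA1. Capitals mark the half-site.
PTGER4: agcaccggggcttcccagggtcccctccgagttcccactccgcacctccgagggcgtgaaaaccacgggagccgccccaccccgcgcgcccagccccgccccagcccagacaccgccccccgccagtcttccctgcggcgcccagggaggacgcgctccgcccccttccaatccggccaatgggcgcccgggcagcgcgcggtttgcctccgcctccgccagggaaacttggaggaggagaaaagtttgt
PMEPA1: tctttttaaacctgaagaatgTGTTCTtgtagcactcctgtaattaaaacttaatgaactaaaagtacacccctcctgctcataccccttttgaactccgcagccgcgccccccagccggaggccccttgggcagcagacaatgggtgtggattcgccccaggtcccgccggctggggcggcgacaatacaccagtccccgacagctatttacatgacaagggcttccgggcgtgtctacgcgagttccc
The PMEPA1 match began 229 bases before that start, and 3 other PMEPA1 starts held none. GGAC, a core of the sequence that the methyltransferase prefers in RNA, stood in the first 50 transcribed bases at 1 of the 12 starts, also of PMEPA1, against 18.9% of all promoters. A match is a description and not a site.

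Most regions of these genes were not called higher, and those that were lay mainly in exons. A region that was not called is not shown to lack m6A, since few reads leave a wide interval. In 22Rv1, 19 of 67 regions were called higher, beside 54.3% of all regions of that line. LNCaP had 29 of 181 called higher, beside 38% of all regions, and HPr1AR had 30 of 203, also beside 38%. The share was therefore below the background in every line. Exon regions were called higher in 16 of 30 cases in 22Rv1 (all exon regions 49.8%), in 22 of 60 in LNCaP (42.8%) and in 19 of 61 in HPr1AR (43.6%). Among intron regions, 3 of 37, 7 of 121 and 11 of 142 were called higher in 22Rv1, LNCaP and HPr1AR, beside 63.6%, 32.5% and 32.7% of all regions outside exons. 4 regions were called lower, all in introns of ELL2 in 22Rv1 (background 0.75%), against none in LNCaP (0.0998%) or HPr1AR (0.0911%), and 3 PMEPA1 regions of LNCaP could not be settled.

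The median log2 ratio over the genes' regions was 0.06 in 22Rv1, 0.01 in LNCaP and 0.08 in HPr1AR, while the median over all regions was 2.06 in 22Rv1, 1.30 in HPr1AR and between these in LNCaP. The authors' deposited table gave an adjusted p under 0.05 for 62, 171 and 189 of these regions, beside 99.3%, 95.4% and 96.5% of all. The rule that chose the regions used no such value. Those deposited folds subtract the log rate of the reference 2 times, so they do not order regions as the ratio does. Regions called higher were also wider and better covered: their median width was 530 bp in 22Rv1, 1170 bp in LNCaP and 1880 bp in HPr1AR, against 145, 160 and 310 bp for the others. Median reads over both pull-downs were 28, 38 and 48 in the regions called higher, against 10 in the others of each line. The part of width and coverage in the calls was not tested. Depths were also shifted so that the median log2 ratio of all regions of a line was 0 (centred depths). The regions called higher were then 4 of 67 in 22Rv1, 17 of 181 in LNCaP and 13 of 203 in HPr1AR. Over all regions, 15.0%, 21.0% and 20.7% were called higher with centred depths. Those called lower were 34, 31 and 32. The share of all regions called lower with centred depths was not computed, so these counts do not show that the genes were low in m6A.

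**Figure D1:**
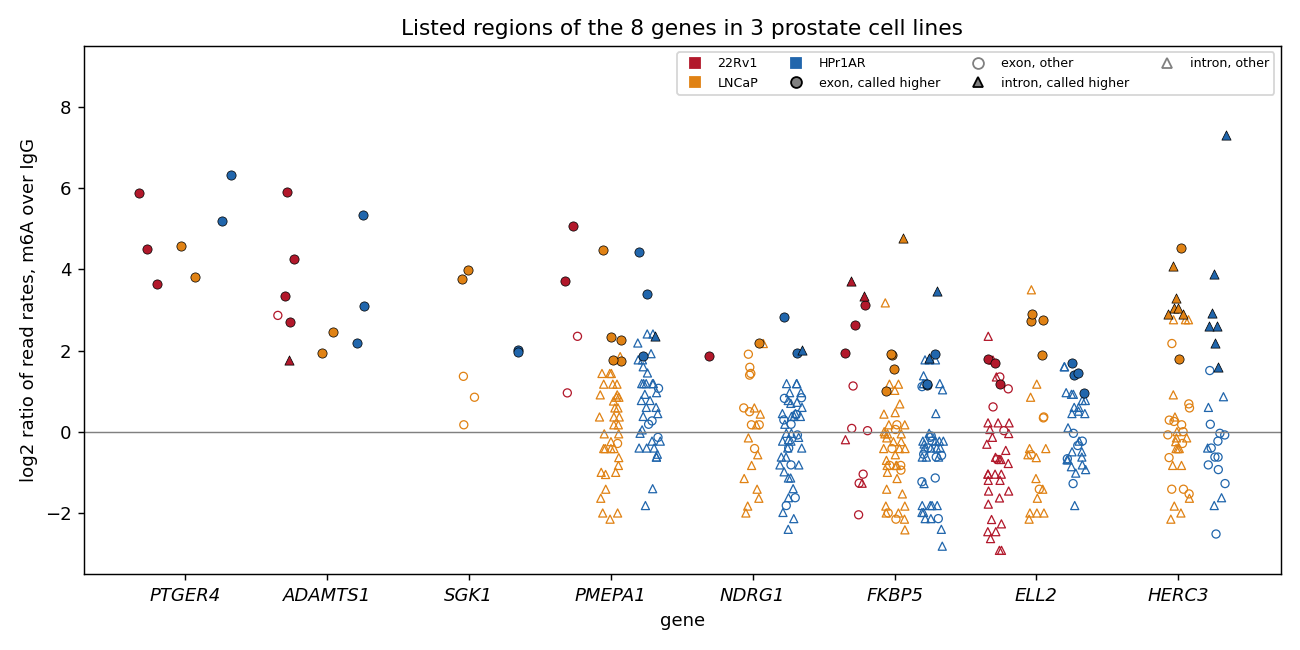
Log2 ratio of m6A over IgG read rates for each listed region, by gene and line; circles are exon regions, triangles intron regions, and filled symbols were called higher at adjusted p 0.05. PTGER4 lies wholly above 0 in the 3 lines, while intron regions of FKBP5, ELL2, NDRG1 and PMEPA1 lie on both sides of 0. Those of PMEPA1 in HPr1AR lie mostly above it (23 of 34).

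PTGER4 encodes the EP4 receptor for prostaglandin E2, and its median log2 ratio was 4.50 in 22Rv1, at least 4.20 in LNCaP and at least 5.75 in HPr1AR. Every listed region was called higher, 3 of 3 in 22Rv1, 2 of 2 in LNCaP and 2 of 2 in HPr1AR. At its 3′-most exon region the smallest matching reads were 40 m6A against 1 IgG in 22Rv1 (chr5:40691881-40692870), a log2 ratio of at least 5.87. The overlapping region gave 74 m6A against 7 IgG reads in LNCaP, at least 4.58, and 70 against 2 in HPr1AR, at least 6.32. The m6A pull-down was thus far above IgG in all 3 lines. The binomial test on these smallest reads gave adjusted p of 1.72e-13, 2.54e-28 and 3.54e-31. The region at its start gave 31 m6A against 2 IgG reads in 22Rv1 (4.50, interval 2.53 to 7.61), 25 against 4 in LNCaP (3.82, 2.29 to 5.80) and 48 against 3 in HPr1AR (5.19, 3.56 to 7.52). A second region near the start in 22Rv1 had 17 m6A against 2 IgG reads (3.63, 1.56 to 6.79). The intervals of the start regions overlap between the lines. With centred depths 2 of 3, 2 of 2 and 2 of 2 regions were still called in 22Rv1, LNCaP and HPr1AR.

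ADAMTS1 encodes a secreted metalloprotease that cleaves matrix proteoglycans such as versican, and most of its listed regions were called higher. In 22Rv1, 5 of 6 regions were called higher, and so were both of LNCaP and all 3 of HPr1AR. Its 3′-most region held at least 41 m6A against 1 IgG read in 22Rv1 (chr21:28209661-28210820; at least 5.90), 80 against 33 in LNCaP (at least 2.45) and 75 against 20 in HPr1AR (at least 3.10). The LNCaP regions are the widest of the 3, 4500 bp each, and join several exons and introns. Its 5′-most region held 21 m6A against 3 IgG reads in 22Rv1 (3.35, 1.61 to 5.74), 82 against 48 in LNCaP (at least 1.95) and 71 against 4 in HPr1AR (at least 5.34). With centred depths 1 of 5 calls was kept in 22Rv1, 1 of 2 in LNCaP and 2 of 3 in HPr1AR, the 3′-most region among them in each line. The 1 region not called, in 22Rv1, had 5 m6A reads against 1 IgG read (2.87, −0.29 to 8.43), and an intron region of 50 bp there had 7 against 0, at least 1.77 with the IgG count set to a floor of 3 reads.

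SGK1 encodes a serum- and glucocorticoid-induced kinase that acts on ion channels and on FOXO factors. The 22Rv1 table as used here held no region of it, with 12 regions listed within 1 Mb. In LNCaP the 3′-most exon region had 18 m6A against 3 IgG reads (3.76, 1.99 to 6.17) and the 5′-most 7 against 1 (3.98, 1.02 to 9.48), both called higher. Between them 3 regions were not called, with 2 to 8 m6A reads against 4 to 7 IgG reads. In HPr1AR 2 wide regions covered the gene, with 25 m6A against 14 IgG reads at the 3′ side (2.03, 1.03 to 3.08) and 19 against 11 at the 5′ side (1.98, 0.83 to 3.20), both called higher. SGK1 was thus called higher at both ends in the 2 lines that list it, but with centred depths 1 region, the 3′-most of LNCaP, was still called and 0 in HPr1AR.

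FKBP5 encodes FKBP51, a co-chaperone of HSP90 that tunes steroid receptors and is a common readout of androgen action. Its regions called higher stood at the 3′ end in the 3 lines, at the start in 22Rv1 and LNCaP, at 1 place inside an intron in the 3 lines and at a further intron region in HPr1AR. The 3′-most exon region had 60 m6A against 10 IgG reads in 22Rv1 (chr6:35541481-35543730; 3.13, 2.15 to 4.26), at least 82 against 50 in LNCaP (at least 1.89) and at least 79 against 48 in HPr1AR (at least 1.91). The next exon region upstream was called higher in all 3 lines too, with 29 against 11 reads in 22Rv1 (1.95), 54 against 42 in LNCaP (1.54) and 41 against 42 in HPr1AR (1.16). The third was called in LNCaP (30 against 34, 1.00) and HPr1AR (27 against 27, 1.19), while 22Rv1 had 8 against 11 (0.09, −1.43 to 1.54) and was not called.

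Further upstream the internal exons of FKBP5 were not called higher. None of the 5, 8 and 10 exon regions between the third and the first in 22Rv1, LNCaP and HPr1AR was called. In HPr1AR the 10 exon regions between the third and the first had 0 to 9 m6A reads against 7 to 22 IgG reads, and all 10 ratios were below 0. In LNCaP 6 of 8 were below 0, with 1 to 9 m6A against 6 to 18 IgG reads, and in 22Rv1 3 of 5, with 1 to 7 against 4 to 10. The exon region about 63.4 kb from the 3′ end, for example, had 2 m6A against 7 IgG reads in 22Rv1, 6 against 13 in LNCaP and 6 against 16 in HPr1AR. The lowest exon ratios were −2.04 in 22Rv1 (1 read against 6), −2.14 in LNCaP (1 against 10) and −2.13 in HPr1AR (1 against 10), and each interval includes 0. Introns reached lower values still, −2.41 in LNCaP (1 against 12) and −2.81 in HPr1AR (1 against 16). The 5′-most exon region had 17 m6A against 4 IgG reads in 22Rv1 (2.63, 1.02 to 4.67) and 15 against 9 in LNCaP (1.91, 0.63 to 3.29), both called higher. In HPr1AR it had 19 against 20 (1.12, 0.13 to 2.10), with an adjusted p of 0.0629.

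The intron region of FKBP5 recurred in the 3 lines at the same place, about 36.0 kb from the 3′ end. It had 24 m6A against 2 IgG reads in LNCaP (chr6:35576841-35577960; 4.76, 2.75 to 7.89) and 29 against 6 in HPr1AR (chr6:35576851-35577920; 3.46, 2.17 to 5.02). In 22Rv1 it was split into 2 regions inside that span, with 9 m6A reads against 1 IgG read (3.72, 0.87 to 9.17) and 7 against 1 (3.35, 0.39 to 8.85). All 4 were called higher, and the tables mark no other gene there. A further intron region was called in HPr1AR alone, with 14 against 9 reads (1.83, 0.52 to 3.22). With centred depths 0 of 5 calls of FKBP5 were kept in 22Rv1, and in LNCaP and HPr1AR 1 of 5 each, the intron region that the 3 lines share.

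**Figure D2:**
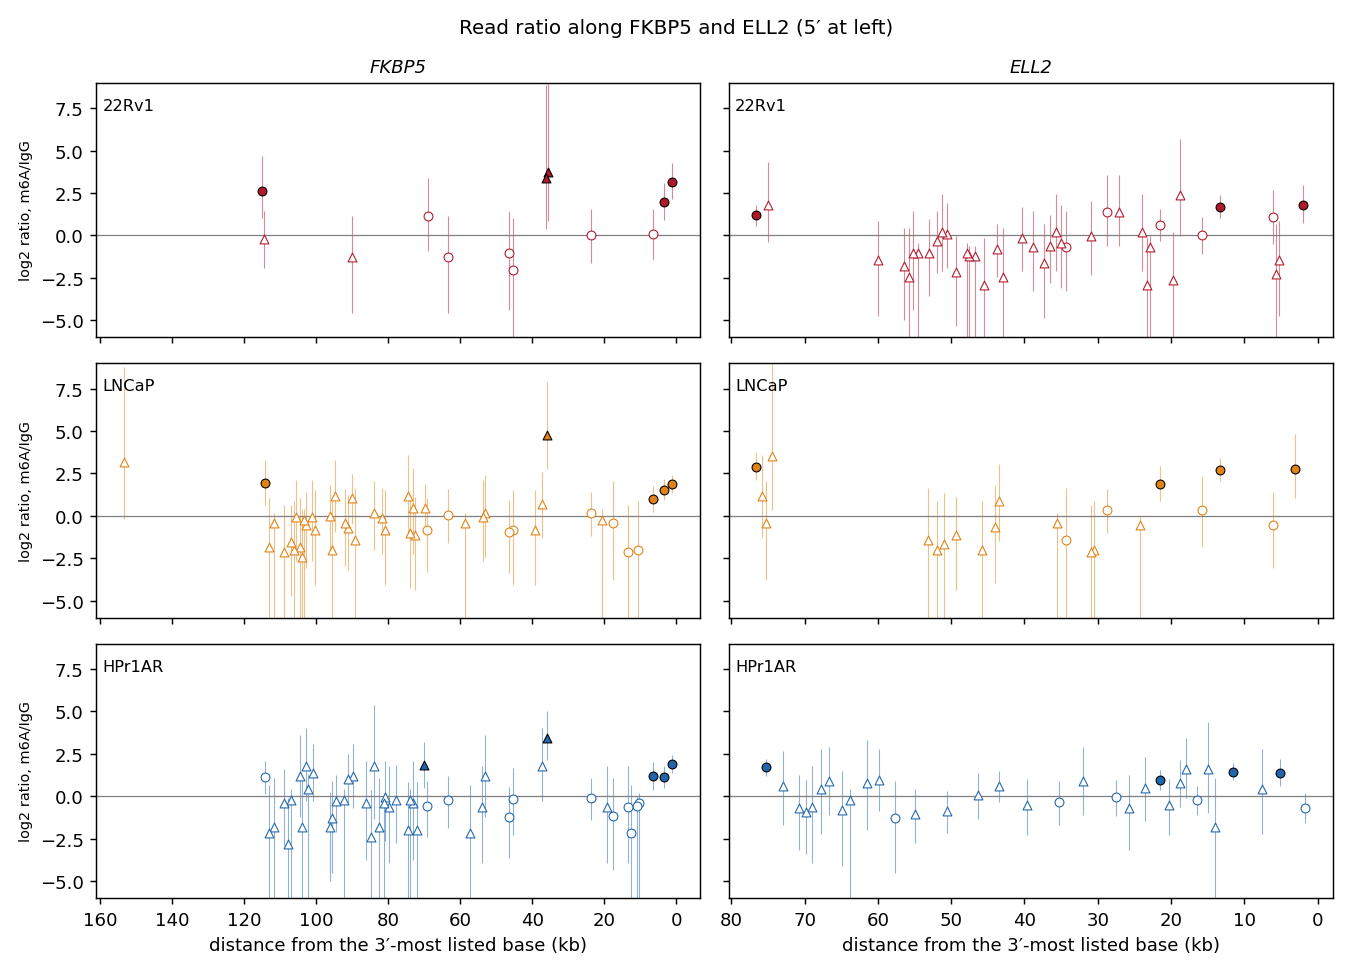
Log2 ratio of m6A over IgG read rates against distance from the 3′-most listed base in kb, for FKBP5 and ELL2 in 22Rv1, LNCaP and HPr1AR; circles are exon regions, triangles intron regions, filled symbols were called higher, and vertical lines are 95% intervals, drawn up to the axis limits. Filled symbols of FKBP5 stand at both ends and near 36.0 kb, and those of ELL2 at both ends and at 11 to 13 kb, apart from the open start of FKBP5 and the open 3′-most circle of ELL2 in HPr1AR. Further filled symbols are an FKBP5 intron region in HPr1AR and the ELL2 exon region near 21.5 kb in LNCaP and HPr1AR.

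ELL2 encodes an elongation factor of the super elongation complex that helps RNA polymerase II through pausing, and it was called higher at an internal exon and at its start in all 3 lines. The internal region had 64 m6A against 29 IgG reads in 22Rv1 (chr5:95233931-95234520; 1.69, 1.04 to 2.38), at least 79 against 27 in LNCaP (at least 2.73) and at least 81 against 67 in HPr1AR (at least 1.46). At the start, 22Rv1 had 62 m6A against 40 IgG reads (1.18, 0.58 to 1.79), LNCaP 56 against 17 (2.90, 2.09 to 3.77) and HPr1AR at least 80 against 56 (at least 1.70). With centred depths both places were still called higher in LNCaP, while 0 regions of ELL2 were in 22Rv1 and 0 in HPr1AR. The region of HPr1AR at the internal exon is 4400 bp wide against 590 bp in 22Rv1 and 630 bp in LNCaP. An exon region about 21.5 kb from the 3′ end was called in LNCaP (23 against 14, 1.89) and HPr1AR (45 against 53, 0.95), and had 21 against 20 reads in 22Rv1 (0.62, −0.34 to 1.58). In HPr1AR a region next to the 3′-most was called too (30 against 26, 1.40, 0.59 to 2.21).

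The 3′-most listed exon region of ELL2 had different bounds and unlike ratios in the 3 lines. It had 26 m6A against 11 IgG reads in 22Rv1 (chr5:95220851-95224840; 1.79, 0.72 to 2.95), 12 against 4 in LNCaP (2.76, 1.04 to 4.85) and 15 against 54 in HPr1AR (−0.66, −1.59 to 0.19). The cancer lines were called higher and this HPr1AR region was not. It ends at 95224250, short of the ends in 22Rv1 (95224840) and LNCaP (95224710). Both cancer-line regions also overlapped the next HPr1AR region, which was called higher. The comparison below is with the HPr1AR region of largest overlap only. The log2 ratio was above that of HPr1AR by 2.45 in 22Rv1 (1.01 to 3.91; unadjusted exact p = 2.88e-04) and by 3.42 in LNCaP (1.41 to 5.66; unadjusted exact p = 2.17e-04). After adjustment over all overlapping region pairs of the 2 lines the exact conditional test gave 0.0529 and 0.0517, so neither passed. The representative window need not be the same stretch of that exon in each line.

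Introns of ELL2 carried few m6A reads. None of its 32, 14 and 24 intron regions in 22Rv1, LNCaP and HPr1AR was called higher, and 4 of 22Rv1 were called lower, each with 0 m6A reads against 9 or 10 IgG reads. With the m6A count set to the floor of 3 reads their log2 ratio was at most −1.19 or −1.04. The lowest ratios were −2.91 in 22Rv1 (1 read against 11, not called), −2.14 in LNCaP (1 against 10) and −1.81 in HPr1AR (1 against 8). Intron ratios above 0 were 7 of 32 in 22Rv1, 3 of 14 in LNCaP and 13 of 24 in HPr1AR.

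NDRG1, a cytoplasmic stress-responsive protein known as a metastasis suppressor, was called higher at the 3′ end in the 3 lines and at the start in HPr1AR. The 3′-most exon region had 20 m6A against 8 IgG reads in 22Rv1 (1.87, 0.62 to 3.26), at least 81 against 40 in LNCaP (at least 2.20) and at least 79 against 47 in HPr1AR (at least 1.94). It is the only region of NDRG1 in the 22Rv1 table and the only one called of 22 in LNCaP. HPr1AR also had the start region, with 34 against 11 reads (2.82, 1.80 to 3.95), and an intron region, with 16 against 9 (2.02, 0.76 to 3.38), called higher. With centred depths 0 regions were still called in 22Rv1, the 3′ end in LNCaP and the start in HPr1AR. The LNCaP start region, 780 bp against 3630 bp in HPr1AR, had 4 m6A against 8 IgG reads (0.18, −2.0 to 2.08) and was not called. The start regions differed by −2.64, LNCaP minus HPr1AR (−5.04 to −0.39; unadjusted exact p = 0.0175, adjusted p = 0.698). The lowest ratios were −1.99 in LNCaP (1 read against 9) and −2.39 in HPr1AR (1 against 12).

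PMEPA1 encodes a membrane protein that binds NEDD4-type ubiquitin ligases and restrains TGF-β signalling, and it was called higher toward its 3′ end and at its start in all 3 lines. A region 3.58 to 3.94 kb from the 3′ end had 46 m6A against 2 IgG reads in 22Rv1 (chr20:56226931-56227660; 5.07, 3.14 to 8.16), at least 80 against 36 in LNCaP (at least 2.33) and at least 74 against 16 in HPr1AR (at least 3.40). Its 5′-most exon region had 9 m6A against 1 IgG read in 22Rv1 (chr20:56284551-56284990; 3.72, 0.87 to 9.17). In LNCaP it had 59 against 6 (4.47, 3.27 to 5.98) and in HPr1AR 38 against 4 (4.44, 2.96 to 6.39). With centred depths both were still called in LNCaP and HPr1AR, and in 22Rv1 the first alone. The 5′-most regions of 22Rv1 and LNCaP (chr20:56285251-56288890) do not overlap. That of 22Rv1 lies inside another LNCaP region, chr20:56281621-56285260, which was also called higher, with centred depths too. The very 3′-most listed region was not the same stretch in each line. That of LNCaP (chr20:56223471-56226110; 31 against 21, 1.74, 0.89 to 2.61) was called higher. That of 22Rv1 (chr20:56225891-56226380; 7 against 2, 2.35, −0.04 to 5.66) was not called. Nor was that of HPr1AR (chr20:56223541-56224190; 5 against 10, 0.19, −1.71 to 1.87), which does not overlap that of 22Rv1. Those of LNCaP and 22Rv1 both overlap the HPr1AR region at 3.58 kb (chr20:56225241-56228870), which was called higher. Of 36 intron regions in LNCaP none was called, and 1 of 34 was in HPr1AR (9 against 4, 2.36, 0.52 to 4.51). The lowest ratios were 0.96 in 22Rv1 (4 reads against 3), −2.14 in LNCaP (1 against 10) and −1.81 in HPr1AR (1 against 8).

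HERC3 encodes a ubiquitin ligase of the HERC family, and its regions called higher lay mainly in introns. The 22Rv1 table as used here held no region of it. Calls of higher m6A in LNCaP fell on 6 of 24 intron regions and on 2 of 15 in exons, and in HPr1AR on 7 of 12 and on 0 of 12 (background for regions outside exons 32.5% and 32.7%). The 6 intron regions of LNCaP overlapped 6 of the 7 of HPr1AR. Between 67.5 and 75.8 kb from the 3′ end, LNCaP had 13 m6A against 0 IgG reads (chr4:89552821-89554250, at least 3.29), 11 against 3 (3.05), 11 against 0 (at least 3.05) and 15 against 2 (4.08, 1.98 to 7.26). HPr1AR had there 13 against 2 (chr4:89552891-89554240; 3.89, 1.75 to 7.08) and 4 regions with 6 to 10 m6A reads against 0, at least 2.19 to 2.93. IgG reads were at or near 0 in all of them. With centred depths 5 of the 6 intron calls and the start were kept in LNCaP, and 5 of the 7 intron calls in HPr1AR.

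An intron region of HERC3 also holds an exon of NAP1L5, an imprinted gene of the nucleosome assembly family. It had at least 70 m6A reads against 1 IgG read in HPr1AR (chr4:89617221-89619020, at least 7.32), and 10 against 0 in LNCaP (chr4:89617791-89618950, at least 2.91). The reads of the overlapping genes cannot be told apart here. The exon region of HERC3 about 102 kb from the 3′ end had 13 m6A against 24 IgG reads in LNCaP (0.29, −0.80 to 1.32) and 8 against 24 in HPr1AR (−0.39, −1.76 to 0.81). The 3′-most exon region had 23 against 15 reads in LNCaP (1.79, 0.79 to 2.84), called higher, and 6 against 12 in HPr1AR (0.19, −1.51 to 1.72), not called. The start was called in LNCaP, with 41 against 4 reads (4.53, 3.07 to 6.48). The lowest ratios were −2.14 in LNCaP (1 read against 10) and −2.51 in HPr1AR (1 against 13).

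**Figure D3:**
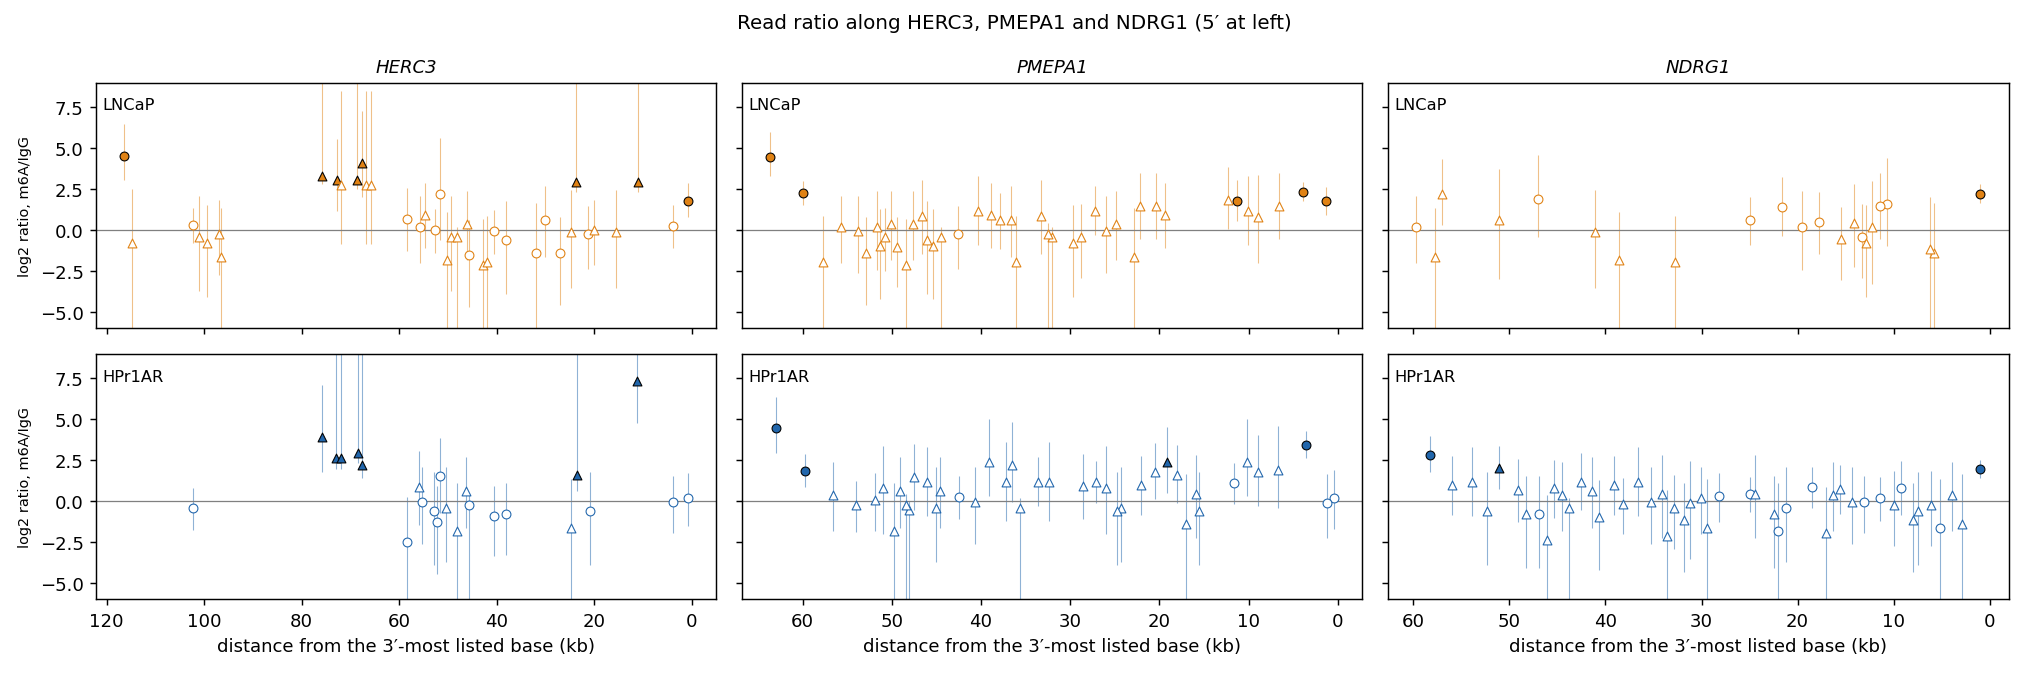
Log2 ratio of m6A over IgG read rates against distance from the 3′-most listed base in kb for HERC3, PMEPA1 and NDRG1 in LNCaP and HPr1AR; symbols and lines are circles for exon regions, triangles for intron regions, filled where called higher, and 95% intervals drawn up to the axis limits. The filled triangles of HERC3 between 67.5 and 75.8 kb recur in both lines, and filled circles of PMEPA1 stand toward both ends.

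Set by place along the gene, the end regions were called higher more often than the exon regions between them, as they were over all genes. Among these genes with at least 3 exon regions, the 5′-most was called in 5 of 5 genes in 22Rv1, 5 of 6 in LNCaP and 4 of 6 in HPr1AR, beside 64.2%, 61.5% and 67.6% of all genes. The 3′-most was called in 4 of 5, 6 of 6 and 3 of 6, beside 68.7%, 64.7% and 65.5%. Regions between were called in 6 of 19, 7 of 44 and 8 of 45 cases, beside 35.5%, 29.0% and 30.5%. The 5′-most listed exon region need not hold the start of the gene. That of HERC3 in HPr1AR, not called, lies 102 kb from the 3′ end, and that of LNCaP 116 kb. The end regions had more reads: in LNCaP the 3′-most held a median of 27 m6A and 18 IgG reads, and those between held 4 and 10. These counts describe the 8 genes and set nothing apart from other genes.

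**Figure D4:**
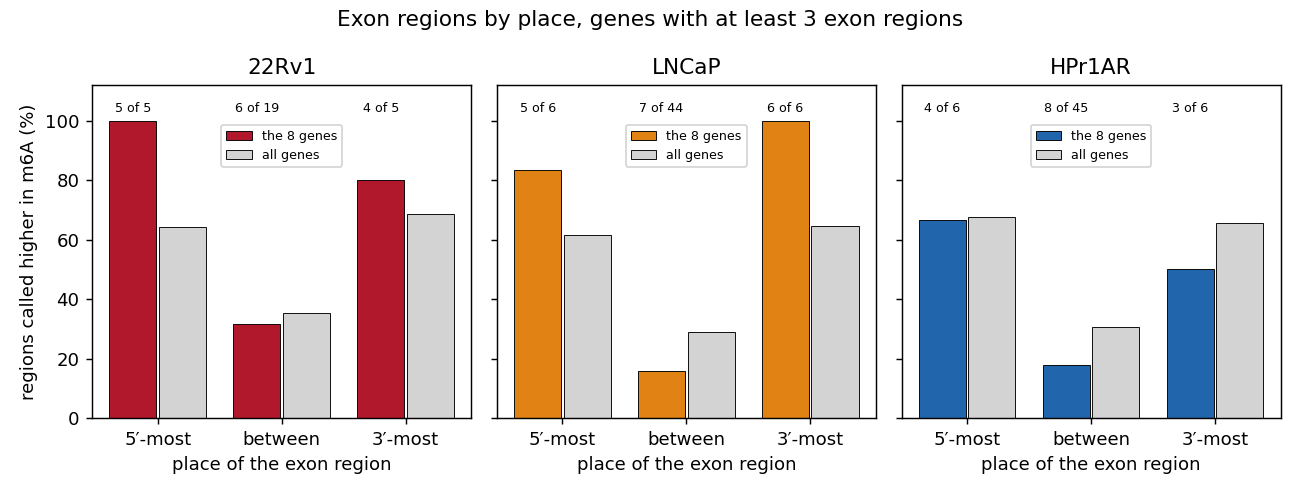
Share of exon regions called higher in m6A (%), by place along the gene, for the examined genes (coloured) and all genes (grey) with at least 3 exon regions in 22Rv1, LNCaP and HPr1AR; the counts above the bars are of the examined genes. Both ends exceed the regions between in each panel.

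Between the lines, the regions of these genes overlapped to differing extents. Of the 67 regions of 22Rv1, 43 overlapped a listed region of LNCaP by at least 1 bp (64.2%, all regions 78.9%), and 67 one of HPr1AR (all regions 77.6%). In the other direction, 39 of 181 LNCaP regions (21.5%, all regions 49.8%) and 39 of 203 HPr1AR regions (19.2%, all regions 38.9%) overlapped one of 22Rv1. Of the 181 LNCaP regions 143 overlapped one of HPr1AR (79.0%, all regions 65.2%), and 121 of 203 in the other direction (59.6%, all regions 50.5%). With 50% of both regions overlapping, the LNCaP share was 29.3% (all regions 38.8%), below that of all regions and not above it. The lists differ in length, so each share is of its own list.

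Ratios were compared only where both lines had whole reads. That gave 31 pairs for 22Rv1 against LNCaP, 56 for 22Rv1 against HPr1AR and 126 for LNCaP against HPr1AR. Regions known only by their smallest reads were left out, so many regions called higher were not compared. Among those left out were the 3′-most region of PTGER4 in every line and both ADAMTS1 regions of LNCaP. The 3′-most regions of FKBP5 and NDRG1 in LNCaP and HPr1AR were left out too. No pair passed an adjusted p of 0.05 by the exact conditional test, beside 0.431%, 0.538% and 0.413% of all pairs, and 1, 6 and 3 had an unadjusted p under 0.05, beside 4.61%, 5.08% and 4.65%. The smallest adjusted p was 0.110, 0.0529 and 0.0517, each at ELL2. The first is the start of ELL2, where 22Rv1 lay below LNCaP by −1.72 (−2.79 to −0.68; unadjusted exact p = 6.54e-04). The reads of that 22Rv1 region were not uniquely rebuilt. With uniquely rebuilt reads only, the smallest unadjusted exact p between 22Rv1 and LNCaP was 0.0866. A p that misses the threshold does not show that the lines are alike: the intervals above span several log2 units.

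**Figure D5:**
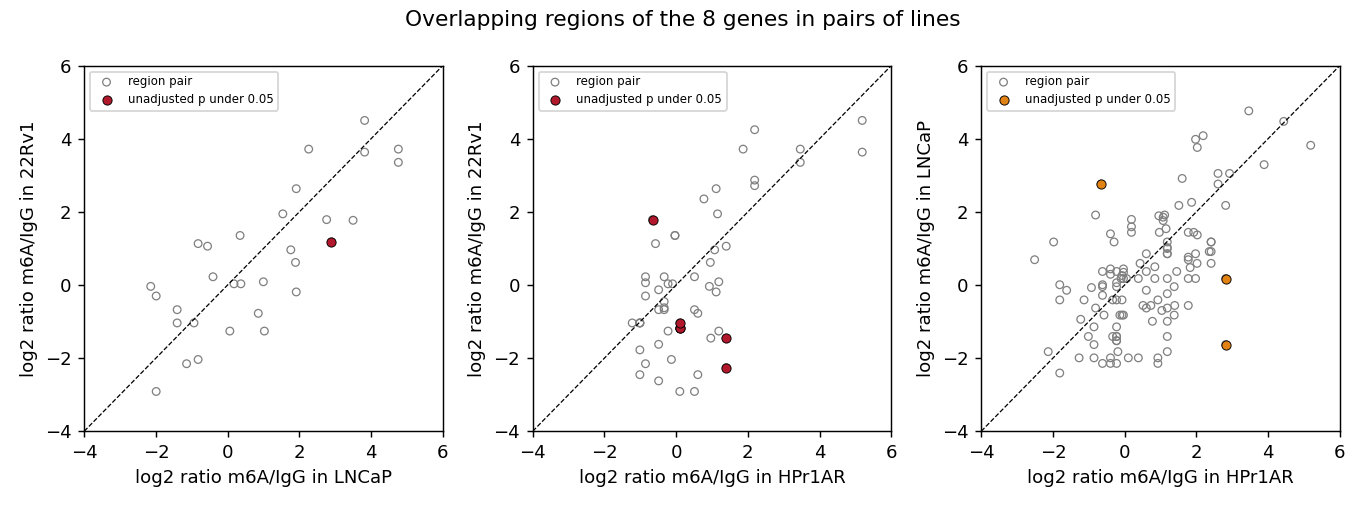
Log2 ratio of m6A over IgG read rates in overlapping regions of the 8 genes, the first-named line of each pair on the vertical axis and the other on the horizontal axis; the dashed line marks equal ratios and filled points have an unadjusted p under 0.05. The filled point at 2.76 in LNCaP and −0.66 in HPr1AR is the 3′-most exon of ELL2. A pair with 0 reads is drawn at its floor value, and regions known only by their smallest reads are left out.

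Over 12215 genes with exon regions in all 3 lines, the gene nearest to each of 6 of the 8 genes was found from 6 values, the m6A and IgG exon read rates of each line, by Euclidean distance of log2(CPM + 1). PTGER4 was nearest to OTUB2 (0.36) and FKBP5 to ADAM10 (0.31). ADAMTS1 was nearest to OCLN (0.51), ELL2 to TPX2 (0.55), PMEPA1 to FAM214A (0.66) and NDRG1 to USP25 (1.02). SGK1 and HERC3, without regions in 22Rv1, had no place in it. PTGER4 had summed exon rates of 26.7 m6A and 1.04 IgG CPM in 22Rv1, 25.2 and 1.24 in LNCaP and 23.0 and 0.427 in HPr1AR. FKBP5 had 40.0 m6A and 14.3 IgG CPM in 22Rv1, 53.0 and 25.2 in LNCaP and 38.6 and 22.5 in HPr1AR. These sums are not divided by length, and where a region's ratio is a lower bound its smallest reads entered the sums and distances.

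Other genes of the androgen response, from a list of 82, carried at least 1 region called higher in most cases. In 22Rv1 70 of 77 listed genes did, in LNCaP 78 of 79 and in HPr1AR 72 of 76, beside 90.4%, 90.3% and 92.5% of all genes. By region, 180 of 448, 252 of 1469 and 243 of 1143 were called higher (40.2%, 17.2% and 21.3%), beside 54.3%, 38% and 38% of all regions. ELK4, an ETS factor, had the most, 10 of 23, 11 of 40 and 10 of 17 regions, followed by ANKH (7 of 8, 12 of 64 and 5 of 14) and MAP7 (5 of 10, 6 of 11 and 7 of 21). SAT1, a polyamine-catabolising enzyme, was listed in every line and had none. Most genes of any kind had such a region, so these counts say little of the androgen response.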

How the data were processed

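The authors deposited 1 table of regions per line, whose columns give a log2 fold, a p-value with its adjusted form and overlap marks for exon, intron and promoter, per the file headers. The submitters' processing notes name hg38, but 93 of the 451 regions lay inside their gene's GRCh38 span, so coordinates are given as the files have them and were not converted, and no sequence was read at regions. The caller is not given in the sources used here. The tables hold 0 further per-sample columns. The labels speak of a biological triplicate, and descriptions that conflict with the titles were not used.

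The deposited log2 fold of the authors followed log2 of the numerator reads minus 2 times log2 of the reference reads plus a constant. From it and the p-value whole reads were sought, with up to 150 numerator reads. This held for 95.6% of regions with p above 0 in 22Rv1, 98.5% in LNCaP and 100% in HPr1AR. Where p was 0 or no pair matched, the smallest reads that reach the p were taken and the ratio is a lower bound, where the formula holds (2, 10 and 9 regions of these genes; 2, 7 and 9 are called higher on it). More than 1 pair matched in 1, 15 and 2 regions, and the nearest was taken. Depths rest on priors that scale with depth. The steps were tested on simulated data drawn from the same fitted formula, which cannot show that the formula holds for the deposited values.

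Reads were compared by a two-sided exact binomial test (2 times the smaller tail) against the depths, adjusted by Benjamini-Hochberg over all regions of a line. The p was first computed by likelihood, and the doubled tail was chosen after the counts under both forms had been seen. Pairs of overlapping regions were compared by an exact conditional test, adjusted over all pairs. Where a pull-down had 0 reads, 3 reads stood in as its floor. Members and gene lists were chosen with earlier results of these data known. Named regions were, per gene and line, the one with the smallest adjusted p, the one with the lowest ratio and the exon regions nearest each end, and others were chosen after their values were seen. From the androgen response list the 3 genes with the most higher regions and any listed gene with none were named. A second list is not reported here. Python 3.11.15, numpy 2.4.6, pandas 2.3.3, scipy 1.17.1 and matplotlib 3.10.9 were used. The alternatives varied the threshold, reads used, depths, windows, region types and overlap.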

Additional observations from a re-analysis of the deposited data

Results flagged for a closer look

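Regions that touch only a promoter of these genes lie outside the rule, and 4 of them were called higher in m6A, above the IgG level measured in the same window. The share of such regions called higher over all genes was not computed, so the count sets nothing apart from other genes. Of all regions outside exons, 32.5% in LNCaP and 32.7% in HPr1AR were called higher. HERC3 had 21 m6A reads against 1 IgG read in HPr1AR, a log2 ratio of 5.58 (2.95 to 11), at chr4:89512401-89513480, inside the span of the LNCaP start region. NDRG1 had 13 m6A against 2 IgG reads in HPr1AR (3.89, 1.75 to 7.08). PTGER4 had 7 m6A reads against 0 IgG reads in LNCaP, at least 2.40 with the floor of 3 reads, and 5 against 0 in HPr1AR, at least 1.93. A HERC3 region of this kind in LNCaP, with 6 against 3 reads (2.18, −0.05 to 4.80), was not called.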

How the results depend on the processing

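Of 60 results recomputed under another setting, 37 stayed within 1.5 times the count, or within the interval of the median, and 23 did not. Values below run 22Rv1, LNCaP, HPr1AR. Regions called higher, 19, 29 and 30, came to 14 in LNCaP and 18 in HPr1AR with uniquely rebuilt reads, to 4, 17 and 13 with centred depths, to 19 in HPr1AR with exon regions only, and to 62, 171 and 189 by the deposited adjusted p. A two-sided p by likelihood, added after seeing the data, gave 19, 31 and 32, beside 56.4%, 40.5% and 40.6% of all regions. With centred depths 15.0%, 21.0% and 20.7% of all regions were called higher. With uniquely rebuilt reads it was 29.6% in LNCaP and 32.8% in HPr1AR. Median log2 ratios of 0.06, 0.01 and 0.08 became −2.0, −1.34 and −1.22 with centred depths, 0.50 in LNCaP and 0.78 in HPr1AR above the shared read rate, and 1.83 in 22Rv1 and 0.64 in LNCaP with exon regions only. Overlaps with listed regions fell to 16 of 67 for 22Rv1 in LNCaP (all regions 45.4%), 12 of 67 for 22Rv1 in HPr1AR (41.6%) and 53 of 181 for LNCaP in HPr1AR (38.8%) when 50% of both regions had to overlap. Among regions called higher, 19 of 19, 18 of 19 and 26 of 29 overlapped one of the other line by at least 1 bp. The shares over all regions called higher were 70.4%, 70.9% and 70.2%. With centred depths 1 pair, the start of ELL2, differed between 22Rv1 and LNCaP, and its 22Rv1 reads were not uniquely rebuilt. The settings themselves change the regions or depths used, and no further cause was tested. No paired analysis was possible because the tables hold no column per sample, and for the same reason no sample could be left out. Ratios from a few reads have intervals of several log2 units.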
